A study of Mus musculus with 9 samples.

Results

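The accessible chromatin of the 2 day 6 libraries without H3.3 knockdown was compared: D6T-, from untransfected Thy-1-negative cells, and D6 siNT, from cells given a non-targeting control siRNA. H3.3 is a histone variant laid down outside replication, and the comparison sets the control of the knockdown experiment against the time-course library of the same day. The members are the regions of both peak files on chromosomes 1 to 19, after overlapping peaks of a file were merged and the 45312 regions of highest pileup of each library were kept, which is the full number of D6 siNT. Regions that shared at least 1 bp were common. This gave 32206 common regions, 13069 D6T- only regions and 10060 D6 siNT only regions, 55335 in all, out of 606963 regions in the 9 ATAC-Seq files of the series.

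Both libraries came from mouse embryonic fibroblasts (MEFs) with GFP at Oct4, infected with pMXs retroviruses for Sox2, Klf4, Oct4 and c-Myc (OSKM) and kept in feeder-free medium until day 6. D6T- cells had no siRNA and were sorted as Thy-1-negative, the population followed as successful reprogramming. D6 siNT cells had been transfected with the non-targeting siRNA before infection. The sample labels call both libraries Thy-1-, whereas the library list of the study gives no sorting for D6 siNT, so siRNA transfection, sorting and preparation of the library cannot be told apart. There was 1 library per condition (no replicates) and therefore no test between conditions. Intervals below hold counting error only.

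ATAC-Seq uses the Tn5 transposase, which cuts DNA where nucleosomes and other proteins leave it exposed, so that sequenced fragment ends pile up over promoters, enhancers and insulators. Fibroblast enhancers are widely bound by AP-1, the Fos and Jun dimer, and by TEAD and RUNX factors, and the OSKM factors displace part of this programme while pluripotency enhancers open. Thy-1 is a surface glycoprotein of fibroblasts that is lost early in reprogramming. In a bulk library, a region open in fewer cells and a region less open in every cell cannot be told apart.

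D6T- held 21390800 tags and D6 siNT held 21784047, so their depth was nearly equal. The unit throughout is the pileup, the count of tags, each extended to 200 bp, over the base of a summit, given as tags or, scaled to the total tags of the library, as CPM. At this depth MACS2 called 129532 regions in D6T- and 45312 in D6 siNT, down to 8 and 9 tags. D6 siH3.3, the H3.3 knockdown library of the same day, had 46211 regions. Other libraries ranged from 35811 (D9T-) to 104965 (D3). Keeping the same number of regions set the lowest D6T- region at 24 tags (1.12 CPM), where 342 of 2571 regions with that pileup were kept, against 9 tags (0.413 CPM) in D6 siNT. The chromosome M summits, which the methods describe as removed but which are in the files, had a median of 992 CPM in D6T- and 837 in D6 siNT. Their part in the differences below was not tested.

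The regions that carry the comparison are shown first by sequence. Each line gives the highest summit with 50 bases on either side, on the plus strand of mm9, and none lies in an exon. The 2 strongest D6T- only regions lie between Ezh2 and Pdia4, at chr6:47707895-47707995 and chr6:47689969-47690069, and capitals mark the central 51 bases, each of which occurs 16 times in mm9.

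D6T- only, first: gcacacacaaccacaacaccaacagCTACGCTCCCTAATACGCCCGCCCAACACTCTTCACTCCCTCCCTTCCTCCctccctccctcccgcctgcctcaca

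D6T- only, second: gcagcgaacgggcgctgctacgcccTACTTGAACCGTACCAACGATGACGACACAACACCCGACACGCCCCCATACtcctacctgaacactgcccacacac

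The first of these also held a RUNX motif, outside its capitals. Of the D6T- only regions without repeated sequence, the 2 strongest are shown, at chr13:74594644-74594744 near Zfp825 and chr15:73290189-73290289 near Gm10362. Each held an AP-1 motif, in capitals, whereas the third strongest, on chromosome 19, held none of the motifs searched below.

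Near Zfp825: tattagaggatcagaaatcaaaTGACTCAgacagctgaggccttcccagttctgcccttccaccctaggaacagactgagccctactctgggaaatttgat

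Near Gm10362: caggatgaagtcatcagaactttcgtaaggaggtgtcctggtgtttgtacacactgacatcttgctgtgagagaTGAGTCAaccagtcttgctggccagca

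Of the D6 siNT only regions, the strongest and the third strongest are shown, at chr14:9119222-9119322 near Fam107a and chr5:33076674-33076774 near Pisd, in an intron of Gm2420. They held none of the motifs searched below and have no capitals.

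Near Fam107a: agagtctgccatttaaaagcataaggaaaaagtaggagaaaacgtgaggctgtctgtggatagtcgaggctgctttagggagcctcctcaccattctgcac

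Near Pisd: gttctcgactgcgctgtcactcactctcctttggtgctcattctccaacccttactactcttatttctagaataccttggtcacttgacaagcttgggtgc

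Of the common regions, the 2 with the largest excess in D6T- are shown at chr10:81167485-81167585 near Gm8112 and chr1:173009612-173009712 near Fcgr3. Their central 51 bases, in capitals, each occur 3 times in mm9.

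Near Gm8112: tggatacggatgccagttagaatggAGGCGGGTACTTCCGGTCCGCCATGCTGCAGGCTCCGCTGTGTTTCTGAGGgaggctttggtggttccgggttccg

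Near Fcgr3: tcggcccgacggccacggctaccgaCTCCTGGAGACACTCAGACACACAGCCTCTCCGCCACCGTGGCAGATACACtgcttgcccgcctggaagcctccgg

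The 2 with the largest excess in D6 siNT, at chr10:21862246-21862346 near E030030I06Rik and chr2:181665553-181665653 near Gm14496, have central 51 bases, again in capitals, that occur once.

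Near E030030I06Rik: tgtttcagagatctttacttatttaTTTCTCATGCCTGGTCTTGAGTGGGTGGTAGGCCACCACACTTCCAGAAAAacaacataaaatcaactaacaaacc

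Near Gm14496: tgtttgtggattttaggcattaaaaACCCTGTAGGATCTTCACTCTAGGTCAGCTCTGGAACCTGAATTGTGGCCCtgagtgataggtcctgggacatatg

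Common regions were higher in D6T- almost throughout. The median common region had 49 tags in D6T- (2.29 CPM) and 19 in D6 siNT (0.872 CPM). The log2 ratio of pileup in CPM had a median of 1.37, which is 2.59-fold, with quartiles of 1.07 and 1.68 and an SD of 0.47 over regions. Of the common regions 99.7% were higher in D6T- and 109 of 32206 were lower. At least 2-fold higher in D6T- were 79.2%, and at least 2-fold lower were 8 regions, or 0.0248%. The threshold of 24 tags in D6T- fixes part of this for regions that are weak in D6 siNT. With all regions kept, 40896 were common and their median log2 was 1.22. Among the 7667 common regions with 29 tags or more in D6 siNT, where the threshold has little part, the median was 1.30 and 98.7% were higher in D6T-.

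The excess was spread over the genome. The median log2 lay between 1.33 and 1.44 on each of the 19 chromosomes. It was 1.43 for promoters, 1.37 for gene bodies and 1.33 for intergenic regions. Among those with 29 tags or more in D6 siNT it was 1.40 for 3229 promoters (SD 0.39) and 1.06 for 1607 intergenic regions (SD 0.56). D6T- set against D6 siH3.3, which shares the D6T- library with the comparison above, gave a median log2 of 1.30 (SD 0.47) over 32236 common regions. D6 siH3.3 over D6 siNT gave 0.08 (SD 0.40) over 33404. D6T- also stood above the other time-course libraries, with 53345 regions of at least 1 CPM, against 10132 (D0) to 22526 (D3) in the rest. In these day 6 pairs, the siRNA libraries lay close to each other and both below D6T-. Because of this shift, single regions and genes are given below also as their log2 ratio minus the median.

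**Figure D1:**
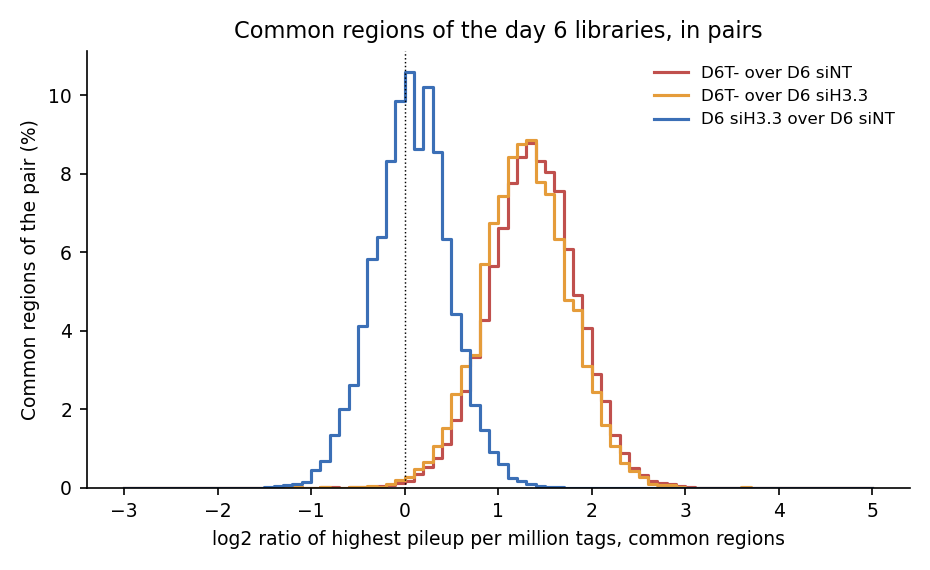
Distribution of the log2 ratio of highest pileup in CPM (x axis, bins of 0.1) over the common regions of each pair of day 6 libraries (y axis, percent of the pair's common regions). D6T- over D6 siNT has its median at 1.37 and D6T- over D6 siH3.3 at 1.30, while D6 siH3.3 over D6 siNT is centred near 0, at 0.08.

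Relative to the median shift, few common regions moved. At least 2-fold above it were 500 regions (1.55%), of which 41 held a repeated 51-base window, and at least 2-fold below it were 653 (2.03%), of which 95 did. The regions below the shift were mostly intergenic: 53.1% against 31.2% of all common regions, with 9.95% in promoters against 26.7%.

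The common regions farthest above the shift lay in repeated sequence. The one near Gm8112 (chr10:81167092-81168066) had 398 tags in D6T- and 16 in D6 siNT, a log2 of 4.66 (exact 95% interval 3.95 to 5.48). The one near Fcgr3, a receptor for the constant part of IgG (chr1:173009157-173012898), had 345 and 15 tags, log2 4.55 (3.81 to 5.40). Regions near Sprr2a3, Gm8137 and Tex14 followed with log2 between 3.79 and 4.07. All 5 had 4 or 5 of their 5 windows of 51 bases repeated in mm9, and each was higher, in CPM, in D3, D6T- and D12S+ than in D0, D9T-, iPSCs and the siRNA libraries. The region near Gm8112 had 295 tags in D3 and 165 in D12S+, against 12 in D9T- and 14 in D6 siH3.3.

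Common regions in unique sequence, chosen here after their values were seen, gave smaller excesses. A region in an exon of Fam168a (chr7:107988082-107988926), with Relt as the nearest start site, had 98 tags in D6T- and 9 in D6 siNT, log2 3.47 (2.49 to 4.64). One upstream of Dock8, an exchange factor for Cdc42 (chr19:25069180-25069861), had 89 and 10 tags, log2 3.18 (2.23 to 4.29). In CPM the Fam168a region had 1.70 at D0, 1.92 at D3, 4.58 in D6T- and 1.14 in D9T-, and the Dock8 region 2.24, 2.84, 4.16 and 0.530. Neither was called in D16S+ or iPSCs. The next 3 lay in an intron of the transcription factor gene Zfhx3 (log2 3.10), at the start site of the chromatin remodeller subunit gene Ino80d (3.07) and upstream of the heparan sulfatase gene Sulf1 (2.96). The Ino80d region was also called in D16S+ and iPSCs.

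The 5 common regions lowest in D6T- against D6 siNT were present in every library. The region near E030030I06Rik (chr10:21861988-21862981) had 33 tags in D6T- and 105 in D6 siNT, log2 -1.64 (-2.25 to -1.07), with 89 in D6 siH3.3 and 164 in iPSCs. The one near Gm14496 (chr2:181664808-181666134) had 35 and 102 tags, log2 -1.52 (-2.11 to -0.95), with 66 in D6 siH3.3 and 118 in iPSCs. D6T- held the fewest tags of the 9 libraries at both. The next 3, near Vmn1r238, Olfr161 and P4ha2, had log2 between -1.28 and -1.22 and were also called in all 9 libraries.

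D6T- only regions had from 24 to 967 tags, with a median of 30.0 (1.40 CPM). The 5 strongest lay in multi-copy sequence on chromosomes 6 and 4. The strongest (chr6:47706922-47708293, intergenic, 55.6 kb from the start site of Pdia4, a chaperone of the endoplasmic reticulum) had 967 tags in D6T-, 1117 in D3, 687 in D12S+ and 888 in D16S+. It was not called in D0, D9T-, iPSCs, D6 siH3.3 or D6 siNT, whose lowest called pileups were 7 to 11 tags. The second (chr6:47689304-47690668) had 762 tags in D6T-, 816 in D3, 541 in D12S+ and 594 in D16S+, and again no region in the other 5. The third (chr4:88439685-88440626) lay at the promoter of Gm13275 in the interferon zeta cluster, with 597 tags in D6T-, 524 in D3, 224 in D12S+ and 271 in D16S+. The next 2 (chr6:47604153-47606327 and chr6:47721618-47722548), nearest to Ezh2, the H3K27 methyltransferase gene, and to Pdia4, had 537 and 529 tags.

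Whole stretches showed this pattern. Between Ezh2 and Pdia4, D6T- had 43 regions with up to 45.2 CPM, and D3, D12S+ and D16S+ had 55, 47 and 49 regions with up to 36.9, 39.0 and 41.9. The other 5 libraries had 3 regions each, with at most 2.14 CPM. In the interferon zeta cluster, genes of type I interferons, D6T- reached 27.9 CPM and D6 siNT 1.79. In a cluster of zinc finger genes on chromosome 2, D6T- reached 14.5 and D6 siNT had no region. The regions of D6T- in these stretches had a median of 12 to 14 copies in mm9, although the methods state that reads with more than 1 location were removed. The cause was not tested. At least 3 of 5 windows were repeated in 408 of the D6T- only regions (3.12%) and 349 of the D6 siNT only regions (3.47%). Over all kept regions the shares were lower, at 1.74% in D6T- and 1.71% in D6 siNT.

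**Figure D2:**
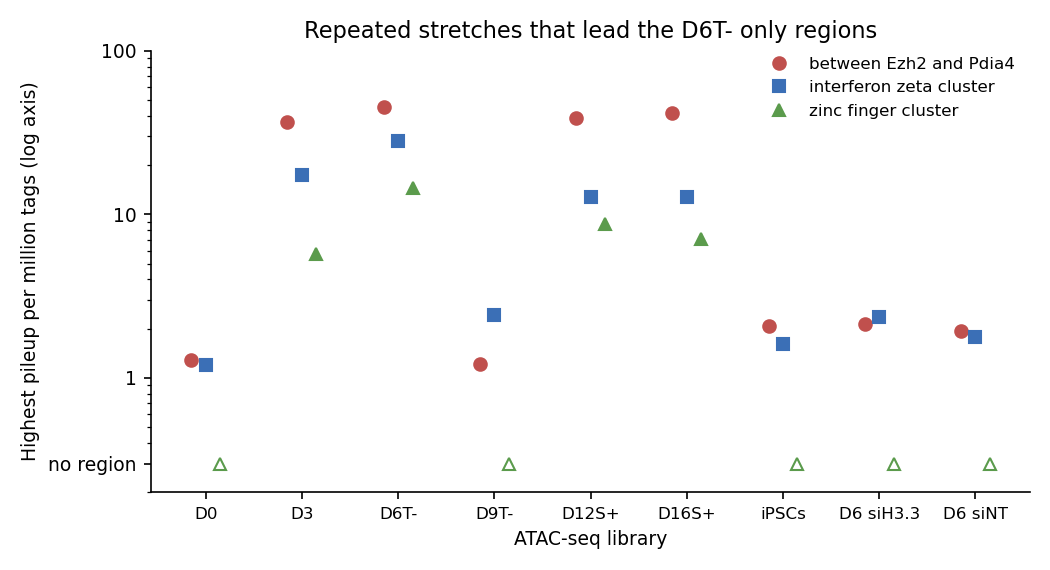
Highest pileup in CPM (y axis, log scale) in 3 stretches of repeated sequence, in each of the 9 libraries (x axis); open symbols mark libraries with no region called there. D3, D6T-, D12S+ and D16S+ lie between 5.69 and 45.2, and every other library lies at or below 2.42.

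In unique sequence, the D6T- only regions were moderate in height. Of these 12368 regions, 63.4% overlapped any region of D0 and 85.2% any region of D3. Common regions did so at 74.2% and 94.4%, and D6 siNT only regions without a repeated window at 22.7% and 48.1%. The strongest D6T- only region in unique sequence, 25.7 kb from Zfp825, had 86 tags in D6T-, 30 at D0, 49 at D3 and 12 in D6 siH3.3. The next, 30.9 kb upstream of Gm10362, had 85 tags, with 28 at D0 and 57 at D3. At the start of Xrcc3, a gene of recombinational repair (chr12:113047800-113048612), D6T- had 81 tags, D0 26, D3 45 and D6 siH3.3 12. In an intron of Rbm47, an RNA-binding protein (chr5:66450058-66450516), D6T- had 78, D0 40 and D3 61. Regions of 75 to 76 tags followed near the autophagy gene Rb1cc1, in the H3K36 methyltransferase gene Ash1l, far upstream of Map3k7, the nearest coding gene there, in the endoplasmic reticulum chaperone gene Erp44 and at the promoter of Oaf. These 9 regions were all called at D0, D3 and, at 12 to 18 tags, in D6 siH3.3. The third strongest region of this kind, chr19:5793066-5797183, is not among them. It had 85 tags in D6T-, 15 at D0, 21 at D3 and no region in D6 siH3.3. All these regions were chosen after their values were seen.

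D6 siNT only regions were weak. Their median was 13 tags (0.597 CPM) and the highest had 54. Of the 10060 regions, 8823 (87.7%, 95% Wilson interval 87.0 to 88.3) overlapped a weaker D6T- region that the equal number had left out, with medians of 18 tags in D6T- and 13 in D6 siNT. At those regions D6T- was again the higher library, with a median log2 of 0.47, and D6 siNT was higher at 1490 (16.9%). With all regions kept, only 1237 D6 siNT only regions remained. The strongest D6 siNT only region (chr14:9119037-9119417, 23.0 kb from Fam107a) had 54 tags in D6 siNT, 13 in D6T-, 39 in D6 siH3.3 and 72 in iPSCs. Of its 5 windows of 51 bases, 3 were repeated in mm9. The second (chr18:3008288-3009780) had 51 and 23 tags. The third, in an intron of Gm2420, had 45 and 15 tags, and the next, in an intron of Nkain3, 41 and 19. The weakest of the 5 lay 147 kb upstream of Negr1, a neuronal adhesion molecule gene, with 40 and 23 tags. All 5 were called in each of the 9 libraries, and D6T- had the lowest CPM at the first 4 of them. Among regions with no D6T- overlap at all and unique sequence, the strongest lay 110 kb from the neuropeptide gene Cartpt, with 39 tags in D6 siNT, 32 in D6 siH3.3 and 28 at D0.

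Regions of either library alone lay away from start sites. Of common regions 26.7% (26.2 to 27.1) had their midpoint in a promoter, taken as 3 kb upstream of any annotated start site, against 11.1% (10.6 to 11.7) of D6T- only and 12.4% (11.7 to 13) of D6 siNT only regions. Gene bodies held 42.1%, 45.9% and 45.7%, and intergenic sequence 31.2%, 42.9% and 41.9%. Within 1 kb of a protein-coding start site were 34.0% of common, 8.33% of D6T- only and 10.5% of D6 siNT only regions. The median distance to such a start site was 8.42 kb, 23.1 kb and 21.8 kb. D6T- only and D6 siNT only regions thus differed far more from common regions than from each other, and the order of their promoter shares turned round (18.2% and 16.3%) when 20000 regions per library were kept. The contrast with common regions is not at equal strength. Of 8448 common regions with 9 to 14 tags in D6 siNT, 1491 lay in promoters, against 3229 of 7667 with 29 tags or more. Single-library regions ranked low in their own library, as given below.

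**Figure D3:**
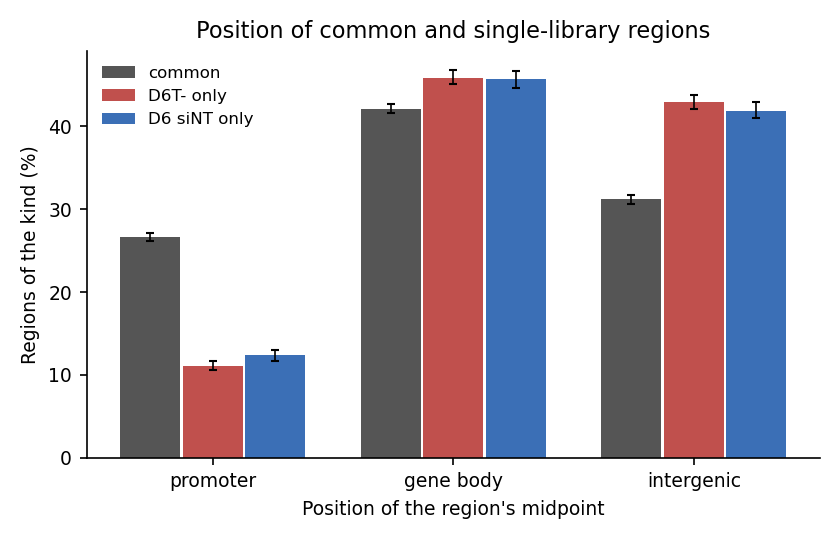
Percent of common, D6T- only and D6 siNT only regions (y axis) with their midpoint in a promoter, a gene body or intergenic sequence (x axis), with 95% Wilson intervals as error bars. The promoter share of common regions, 26.7%, is above the 11.1% and 12.4% of the regions of a single library.

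Regions of a single library were also narrower, at 449 bp in D6T- and 254 bp in D6 siNT, against 747 bp for common regions. On their own library's scale they had the same rank: the median D6T- only region stood at the 22.3 percentile of the kept D6T- regions and the median D6 siNT only region at the 22.5 percentile of D6 siNT.

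D6T- only regions of unique sequence were most frequent near Ank3 and Pde4d, a cytoskeletal adaptor and a cAMP phosphodiesterase, with 13 each, followed by the ETS factor Ets1 with 11 and by Celf4, Dlg2, Gpc6, Id2, Map3k7, Myc and Rnf144a with 10 each. The same genes had from 4 to 18 common regions, and from 0 (Id2) to 11 (Dlg2) D6 siNT only regions. D6 siNT only regions were most frequent at Heatr7b1 (25) and Trpm8, a cold-sensing channel (20), which neighbour each other on chromosome 1. The megabase that holds both, chr1:90000001-91000000, had 61 D6 siNT only regions, with a median of 0.712 CPM in D6 siNT and 0.654 in D6T-. The 2 densest windows, chr4:146000001-147000000 and chr4:145000001-146000000, had 77 and 67 D6 siNT only regions around Zfp600 and Rex2, with medians over all regions there of 0.597 CPM in D6 siNT and 0.561 in D6T-. These medians are over lists of unlike length, with 148 D6T- and 84 D6 siNT regions in the chromosome 1 window and 81 and 80, then 60 and 74, in those of chromosome 4. The densest window of D6T- only regions was chr6:47000001-48000000 with 40, of which 82.5% had at least 3 windows repeated. Of the D6 siNT only regions in the 2 chromosome 4 windows, 18.2% and 16.4% did, against 3.47% of all D6 siNT only regions.

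The time course sorted the regions of single libraries differently, though these were not matched for height or width. D6T- only regions had medians of 1.40 CPM and 449 bp, and D6 siNT only regions 0.597 CPM and 254 bp. Overlap by 1 bp can depend on both, also among the stronger regions below. Of D6T- only regions 48.0% (47.1 to 48.8) overlapped a region of D0 and 57.6% (56.8 to 58.4) a region of D3, against 16.1% (15.4 to 16.8) and 20.7% (19.9 to 21.5) of D6 siNT only regions. Every library was first reduced to at most 45312 regions. In D9T- the order was the other way round, with 18.6% and 26.5%, as it was in D16S+ (20.5% and 26%), iPSCs (16.5% and 23.1%) and D6 siH3.3 (30.6% and 41.2%). D12S+ held 31.8% and 27.0%. Taken over all kept regions, D6T- overlapped D0 at 59.7% and D6 siNT at 51.4%. Common regions, of which 64.5% overlapped D0, enter both of these shares, so the difference there is narrower by construction. The gap at D0 was present without repeated sequence (49.5% and 13.6%) and among stronger regions, with 68.4% of 1835 D6T- only regions of at least 40 tags and 24.8% of 479 D6 siNT only regions of at least 20 tags. The gap at D0 was small with no library reduced, where D0 held 28.6% and 26.4%, and D6 siH3.3 10.5% and 20.9%. That setting changes the day 6 sets and the regions of D0 at once. Its 1237 D6 siNT only regions overlapped the reduced D0 at 17.9%. Several of these orders turned with the setting. Where a region had to lack overlap with any region of the other library, D9T- held 18.6% of D6T- only and 11.5% of D6 siNT only regions, and D6 siH3.3 30.6% and 20%. With 20000 regions per library D16S+ held 25.2% and 24.9%, and with all regions kept D12S+ held 18% and 18.9%. The orders at D0, D3 and iPSCs stayed under these 3 settings.

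Put together by time, 41.2% of D6T- only regions (40.4 to 42.1) were found at D0 or D3 and in none of D12S+, D16S+ and iPSCs, against 11.5% (10.9 to 12.1) of D6 siNT only regions. The reverse pattern, found late and not early, held for 8.17% and 20.3%. No other library at the reduced number held 14.4% and 27.3%. With all regions of the other libraries counted, 5.58% of D6T- only and 18.4% of D6 siNT only regions overlapped none of them. These shares, too, are of regions not matched for height or width.

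**Figure D4:**
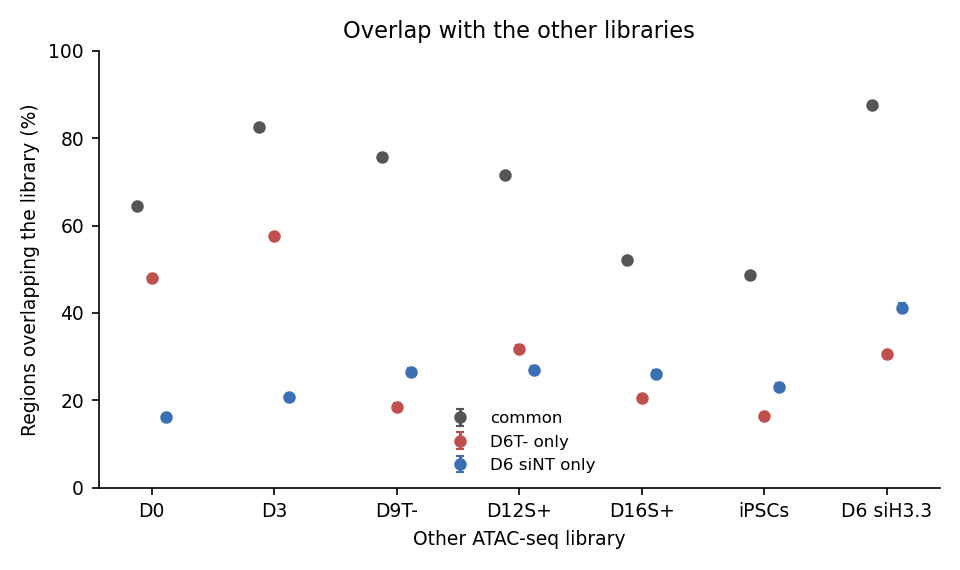
Percent of common, D6T- only and D6 siNT only regions (y axis) that share at least 1 bp with a region of each other library (x axis, each reduced to at most 45312 regions), with 95% Wilson intervals. D6T- only regions lie above D6 siNT only regions for D0, D3 and D12S+, at 48.0% against 16.1% in D0, and below them for the other 4 libraries, an order that turned under another setting for D9T-, D12S+, D16S+ and D6 siH3.3.

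Sequence motifs differed as well. Motifs were counted on both strands within 100 bp of the highest summit. AP-1 (TGANTCA) was present in 46.1% (45.3 to 47.0) of D6T- only regions, 34.3% (33.8 to 34.8) of common regions and 22.3% (21.5 to 23.1) of D6 siNT only regions. It was present in 33.2% of all kept regions, in 6.14% of windows placed every 100 kb and in 4.37% of windows on protein-coding start sites. Outside promoters, the shares were 48.1%, 42.1% and 23.4%, and among the stronger regions of each library 53.2% and 27.3%. D6T- only regions found at neither D0 nor D3 held AP-1 in 47.8% (46.3 to 49.4), near the 45.4% (44.4 to 46.4) of those found there.

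TEAD (ACATTCC) was present in 6.53% of D6T- only, 4.28% of D6 siNT only and 4.45% of common regions, and RUNX (TGTGGTT) in 7.94%, 6.05% and 5.74%. All kept regions held them in 4.64% and 6.00%, and windows every 100 kb in 2.61% and 4.79%. The core of CTCF, the insulator protein, was present in 4.37% (4.03 to 4.73) of D6T- only regions, against 2.55% (2.26 to 2.88) of D6 siNT only and 2.16% (2.00 to 2.32) of common regions, 2.39% of all kept regions and 0.104% of windows every 100 kb. KLF (GGGNGTGG) ran the other way, with 7.77% (7.32 to 8.24) of D6T- only, 12.3% (11.7 to 13) of D6 siNT only and 13.8% of common regions, beside 12.7% of all kept regions and 4.72% of windows every 100 kb. The Oct-Sox composite, the element bound by Oct4 with Sox2, was rare, at 5 D6T- only, 8 D6 siNT only and 27 common regions, with overlapping intervals for the single-library regions (0.0163 to 0.0895% and 0.0403 to 0.157%), against 0.0209% of windows every 100 kb. Mean GC content was 49.6%, 48.1% and 54.5%. The letters of RUNX and KLF can share bases, and a match is a description of the sequence only.

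Promoters of protein-coding genes followed the common regions. Of 21281 genes on chromosomes 1 to 19, 11861 had a region over the promoter in both libraries, 2864 (13.5%) in D6T- alone and 22 (0.103%) in D6 siNT alone, with all regions used. Where both had one, the median log2 was 1.42. Relative to it 115 promoters (0.970%) were at least 2-fold above and 229 (1.93%) at least 2-fold below. With equal numbers of regions, 925 genes had a promoter region in D6T- alone and 494 in D6 siNT alone. With all regions used, a promoter weak in D6T- can, at the common shift, miss the lowest called pileup of D6 siNT, 9 tags. The shares of a list in D6T- alone given below therefore also depend on promoter height, which was not matched.

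Fibroblast and mesenchymal genes were open in both libraries for 18 of 25 and in D6T- alone for 5, and all 18 were higher in D6T-, with a median 0.07 below that of all genes on the log2 scale. The defining gene of the sort, Thy1, had no promoter region in either library, nor in D9T- or D6 siH3.3, and weak regions in the other 5, with 13 tags at D0 (0.410 CPM), 17 at D3 (0.562), 11 in D12S+ (0.625), 12 in D16S+ (0.567) and 13 in iPSCs (0.489). Promoters of the matrix genes Postn, Col6a1, Col5a1 and Col1a2 had 50, 38, 32 and 25 tags in D6T- and no region in D6 siNT. All 4 were open at D0 and D3, Postn with 35 and 55 tags. At Pdgfra, a growth factor receptor, D6T- had 49 tags and D6 siNT 12, log2 2.06 (1.12 to 3.10), though the highest summit from 3 kb upstream to 500 bp downstream of the start site had 49 and 19. At Prrx1, a mesenchymal homeobox factor, they had 38 and 10 tags. Closer levels were found at Zeb1 (19 and 13), a repressor of epithelial genes, and Tagln (34 and 20), an actin-binding protein of contractile cells. With equal numbers of regions, 4 of the 25 were in D6T- alone (16.0%), against 4.35% of all genes. In D6 siNT alone was 1 (4.00%), against 2.32% of all genes.

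Pluripotency genes had a promoter region in both libraries for 6 of 23 and in D6T- alone for 8 (34.8%, against 13.5% of all genes). The other 9, among them Nanog, Zfp42 and Dppa4, had one in neither. Nanog, the homeobox factor of the pluripotent state, had 15 tags in D12S+ and 28 in D16S+, and Zfp42 23 and 61, and both were called only in D12S+, D16S+ and iPSCs. At Klf2 D6T- had 125 tags and D6 siNT 32, and at Klf5 149 and 52, both Krüppel-like factors of the naive state. Esrrb, an orphan nuclear receptor, had 14 and 10 tags. In D6T- alone were the promoters of Dnmt3l (40 tags), a cofactor of de novo DNA methylation, Fut4 (36 tags), whose enzyme makes the SSEA-1 epitope, Utf1 (31 tags) and Sall1 (27 tags), which had 42, 31, 26 and 27 tags at D3. Of these, Fut4 and Sall1 had a summit in D6 siNT within 500 bp downstream or 3 kb upstream of the start site when summits were used (11 and 20 tags). By the same measure Prdm14, Tdh, Sall4 and Dppa3 had 9, 16, 16 and 18 tags in D6T- and no summit in D6 siNT. With equal numbers of regions 4 of 23 (17.4%) were in D6T- alone, against 4.35% of all genes. In D6 siNT alone was 1 (4.35%), against 2.32% of all genes. Of 20 epithelial genes, 11 had a region in both libraries and 5 in D6T- alone (25.0%, against 13.5% of all genes). Esrp1, a splicing factor of epithelia, had 18 and 14, 1.03 below the median, with a log2 of 0.39 whose interval (-0.70 to 1.51) reaches past that of all genes. Tjp1, a tight junction scaffold, had 43 and 28 tags, and the keratin gene Krt19 45 and 12. Grhl2 and Ocln, an epithelial transcription factor and a tight junction protein, had 18 tags each in D6T- alone. Cdh1 and Epcam, adhesion molecules of epithelia, had no promoter region in either, against 24 and 27 tags in D12S+. With equal numbers of regions no epithelial gene was in D6T- alone and 2 (10.0%) were in D6 siNT alone, against 2.32% of all genes.

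Markers of other cells were open in part. Of 7 haematopoietic genes, 2 had a region in both libraries (Cd68 with 57 and 14 tags, Coro1a with 44 and 16), 2 in D6T- alone (Laptm5 with 16 tags, Csf1r with 14) and 3 in neither. Of 8 endothelial genes, 3 had a region in both (Kdr with 23 and 16 tags, Esam with 89 and 24, Tek with 38 and 18), 2 in D6T- alone (Cdh5 with 26, Pecam1 with 22) and 3 in neither. Over all genes 13.5% were in D6T- alone. With equal numbers of regions no haematopoietic gene was in 1 library alone, and of the endothelial genes 1 was in D6T- alone and 1 in D6 siNT alone. Their part in the shift was not tested.

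Genes that respond to foreign RNA, or process small RNA, had medians near that of all genes. Of 35 interferon response genes, 24 had a promoter region in both libraries, 8 in D6T- alone (22.9%, against 13.5% of all genes) and none in D6 siNT alone (0.103% of all genes), with a median 0.08 above that of all genes. With equal numbers of regions 2 of the 35 were in D6T- alone and 1 in D6 siNT alone. Oasl1 and Oas3, sensors or relatives of sensors of double-stranded RNA, had 38 and 22 tags in D6T- and no region in D6 siNT, and so did the chemokine gene Cxcl10 (33) and Ifit3 (20). At D0 these 4 had 15, 22, 18 and 27 tags. Irf9, a subunit of the interferon-induced complex ISGF3, had 95 and 23 tags, 0.65 above the median, and Irf3, the factor activated downstream of RNA sensors, had 43 and 25, 0.61 below. Parp14 and Gbp2 had 20 and 15 and 25 and 15 tags. Of 13 matched genes of the small RNA machinery, 11 had a region in both, with a median 0.11 above all genes. Drosha had 186 and 39 tags, log2 2.28 (1.78 to 2.82), and Dicer1, the nuclease that cuts precursor microRNAs, 111 and 36. Tarbp2, the partner of Dicer1, had 193 and 51, and Tnrc6c, a silencing effector, 85 and 26, while Eif2c4, an Argonaute gene, had 17 tags in D6T- alone.

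AP-1 and immediate early genes, 16 of 16 open in both, had a median 0.04 below that of all genes. Jun had 161 tags in D6T- and 93 in D6 siNT, log2 0.82 (0.44 to 1.20), which is 0.60 below the median, and Fosb (36 and 20) and the zinc finger factor gene Egr2 (55 and 31) were 0.54 and 0.57 below. Srf, a partner of immediate early induction, had 115 and 29, 0.60 above it.

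Cholesterol synthesis genes had the largest median excess of the lists with over 3 genes in both libraries, 0.35 above that of all genes, with 16 of 16 matched genes open in both. Fdps and Fdft1, which build farnesyl pyrophosphate and squalene, had 143 and 28 and 167 and 35 tags, log2 2.38 (1.79 to 3.02) and 2.28 (1.75 to 2.85). Housekeeping genes were at 0.27 above, with Gapdh at 140 and 35 tags, Gusb at 63 and 16 and Sdha at 46 and 29, and stress response genes at 0.11 above, with Nqo1 at 164 and 40, Hspa1b at 74 and 20, Cdkn1a at 67 and 19 and Mdm2 at 82 and 44. No member of a list was at least 2-fold above the median and 1, Esrp1, was at least 2-fold below it. By summits from 3 kb upstream to 500 bp downstream of the start site, 3 were below it: Esrp1, the desmosome gene Dsg2 (14 and 11 tags) and Sox2 (39 and 35 tags, 1.22 below), which by region had 39 and 16 tags.

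**Figure D5:**
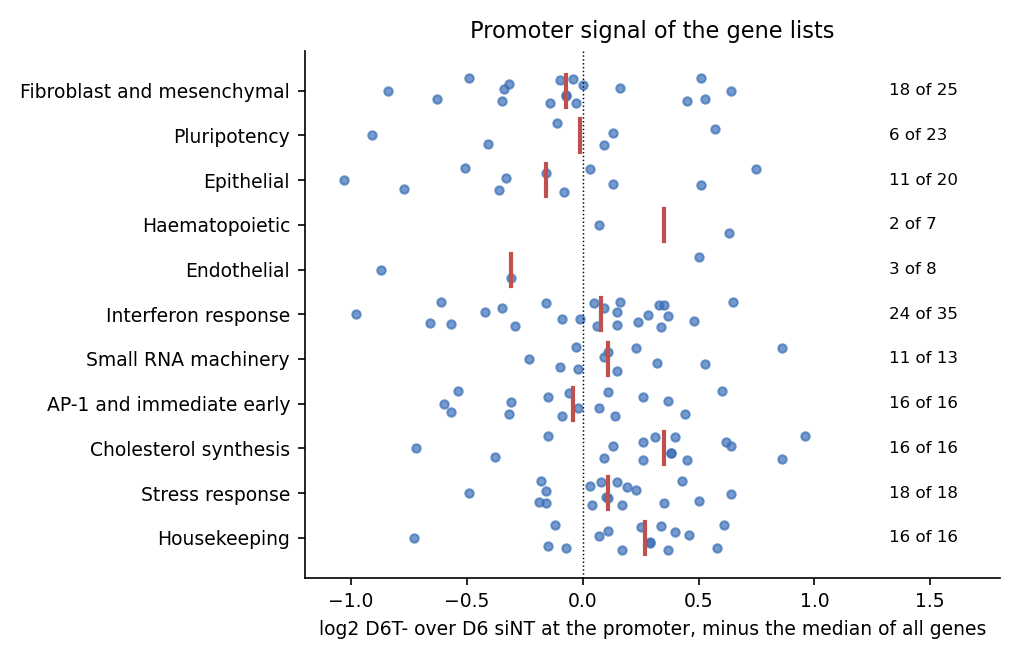
Promoter log2 ratio of D6T- over D6 siNT minus the median of all protein-coding genes (x axis) for the genes of 11 lists (rows); blue points are genes with a promoter region in both libraries, red bars are list medians, and the figures at the right give the number of such genes of those matched. The medians of lists lie between -0.31 (Endothelial, 3 genes) and 0.35.

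The genes of H3.3 itself, neither of which was targeted here, followed the common shift: H3f3a had 84 and 31 tags and H3f3b 115 and 41, 0.05 and 0.10 above the median. The retroviruses carry coding sequence of the OSKM genes, so signal in those exons can come from virus or gene. Summits in the exons of Sox2 had 104 tags in D6T- and 36 in D6 siNT, those of Klf4 101 and 51 and those of Myc 79 and 43. By exon summits Pou5f1 was the exception, with 129 tags (6.03 CPM) in D6T- and 210 (9.64 CPM) in D6 siNT, and 251 (7.91 CPM) at D0. Only summits inside an exon count in that measure. From 3 kb upstream to 500 bp downstream of its start site, the highest summit had 388 tags (18.1 CPM) in D6T- and 210 (9.64 CPM) in D6 siNT. At its promoter D6T- had 416 tags (19.4 CPM), D0 416 (13.1 CPM) and D6 siNT 210 (9.64 CPM). The share of virus, reporter and endogenous locus in these values was not tested.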

How the data were processed

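Peak files of 9 ATAC-Seq libraries were read, 1 per condition. Per the methods the authors aligned to mm9 with STAR and discarded reads with more than 1 location and, through Picard, duplicates. Per the file headers the tags were 51 bases long, the peak caller was MACS2 (version 2.1.0.20151222), and it ran with neither control nor local background at a q-value cutoff of 0.05. The deposited pileup is a signal, the tags extended to 200 bp that cover a summit, not scaled for depth. The deposited fold enrichment is a ratio over tags spread evenly on the genome, and the deposited −log10 p-value and −log10 q-value come from the same counts.

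Overlapping peaks of a file were merged on chromosomes 1 to 19, ties of pileup were broken by −log10 q-value, width and position, and the highest pileup was scaled to the total tags of the library (CPM). Gene models were those of GENCODE vM1, also mm9. Repeated sequence was measured as exact copies in mm9, on either strand, of 5 windows of 51 bases around a summit. Shares have 95% Wilson intervals and log2 ratios exact conditional intervals. Tags that share a molecule are not independent, so both hold counting error only. Regions named were the 5 strongest of each kind (for common regions the 5 highest and 5 lowest log2 with at least 20 tags) and, for each gene list, up to 4 genes farthest from the median and up to 4 open in 1 library; a few of these are not reported here. Members and lists were chosen with earlier results of these data known. Ago1 to Ago4, Msmo1, Hmgcs1, Tfcp2l1, Spi1, Hprt and Pgk1 had no match by symbol among protein-coding genes of these chromosomes. Leaving out repeated sequence, and promoter levels by summit, were alternatives chosen after seeing the data. Functions were tested on simulated data, with 10 of 10 checks passed. Python 3.11.15, numpy 2.4.6, pandas 2.3.3, scipy 1.17.1 and pysam 0.24.0 were used.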

Additional observations from a re-analysis of the deposited data

How the results depend on the processing

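Each condition had 1 library, so no setting could leave out a replicate. No paired analysis was possible because no condition had a second library. Common regions were higher in D6T- under every scaling except centring, which removes the shift by construction. With all regions of both libraries kept there were 88398 D6T- only and 1237 D6 siNT only regions, the promoter share was 23.5% (common) and 10.8% (D6 siNT only), the median log2 of common regions was 1.22, and 64.4% and 0.0782% of them were at least 2-fold higher and lower in D6T-. D0, then also not reduced, held 28.6% of D6T- only and 26.4% of D6 siNT only regions, and D6 siH3.3 10.5% and 20.9%. The gap at D0 thus depends on how many regions are kept, in the day 6 libraries and in D0. With 20000 regions per library there were 14855 common, 5137 D6T- only and 4622 D6 siNT only regions with promoter shares of 36.9%, 18.2% and 16.3%, 85.7% of common regions were at least 2-fold higher in D6T-, D0 held 14.9% of D6 siNT only regions, and D6 siH3.3 held 33.0% and 47.1% of D6T- only and D6 siNT only regions. Where a region had to lack overlap with any region of the other library, 1237 D6 siNT only regions were left, with 10.8% in promoters, 17.9% in D0 and 20% in D6 siH3.3. Promoters from 1 kb upstream to 100 bp downstream gave 26% (common), 6.60% (D6T- only) and 7.89% (D6 siNT only), protein-coding genes alone gave 24.0%, 9.11% and 9.96%, and the position of the highest summit gave 33.3% for common regions. The mean pileup over summits gave a median log2 of 1.26. Centred on the median, 1.55% of common regions were at least 2-fold above and 2.03% below, and the promoter median of all genes became 0.00. List medians below it were -0.07 (fibroblast and mesenchymal), -0.01 (pluripotency), -0.16 (epithelial), -0.31 (endothelial) and -0.04 (AP-1 and immediate early). The other lists stayed positive, from 0.08 (interferon response) to 0.35 (haematopoietic and cholesterol synthesis). Centring takes the same value from every gene, so the order of the lists is unchanged. Without repeated sequence D0 held 49.5% of D6T- only and 13.6% of D6 siNT only regions and D6 siH3.3 40.2% of D6 siNT only regions. Another 38 values for these comparisons stayed within their tolerance, which was the counting interval for shares, 0.1 on the log2 scale for medians and 1.5 times for counts. Causes were not tested. A region below about 8 to 9 tags could not be called at this depth, so a region missing from a library is not shown to be closed.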
